A study of Capra hircus with 2 samples.

Results

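miR-187 and miR-184 were described here in the goat endometrium, where both were far higher in the receptive phase than in the pre-receptive phase. They were chosen by that contrast, that is by a large ratio of the receptive to the pre-receptive value in this series. All values of the contrast are therefore given as a description with no test, and nothing is supported with them. Among 587 distinct names of known miRNAs, 3 names belonged to these 2 miRNAs: hsa-miR-187-3p_R+1, hsa-miR-184 and rno-miR-184_R+2_1ss22TA. The prefix of a name gives the species of the best matching database entry, so that a goat sequence can carry a human (hsa) or a rat (rno) name.

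Small RNA was sequenced from the endometrium of Xinong Saanen dairy goats of 24 months in natural pregnancy after synchronized estrus. The P library came from day 5 of gestation (pre-receptive phase) and the R library from day 15 (receptive phase). Tissue of 10 goats was collected on each day and RNA of several goats was pooled, so that 1 value per library was deposited, and no spread between goats or pools is available for the libraries. According to the paper, the RNA of lowest quality was left out on each day. It also reports that a smaller share of raw reads remained after cleaning in R than in P, and that R had the larger share of rRNA reads. Each library is whole tissue, in which a larger share of cells of a type and more RNA per cell cannot be told apart.

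A miRNA is a short RNA that guides silencing proteins to messenger RNAs. It recognizes them mostly through its seed, bases 2 to 8 from the 5′ end, and lowers their stability or translation. miR-184 is known as an abundant miRNA of the epithelia of cornea and lens, and its gene is highly conserved among animals. miR-187 is known in human monocytes, where interleukin-10 induces it and it restrains the production of tumour necrosis factor. The endometrium becomes receptive for a limited time under progesterone, when its luminal and glandular epithelium prepares for attachment of the embryo.

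The mature sequences of the 3 names are shown because both miRNAs were chosen by the same contrast while their seeds differ. They are written 5′ to 3′ with T for U, and capitals mark the seed.
hsa-miR-187-3p_R+1: tCGTGTCTtgtgttgcagccggt
hsa-miR-184: tGGACGGAgaactgataagggt
rno-miR-184_R+2_1ss22TA: tGGACGGAgaactgataagggaaa

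The listed miR-187 sequence had 23 nt, which is hsa-miR-187-3p with 1 more base (t) at the 3′ end. hsa-miR-184 had 22 nt and was identical to its database entry. The second miR-184 name had 24 nt and differed from rno-miR-184 by T22A, counted from 1 at the 5′ end, and by 2 further bases (aa) after it. Both differences lie at the 3′ end, and the seed was the same as in hsa-miR-184. The seeds of miR-187 and miR-184 held the same base at only 1 of their 7 positions.

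Neither seed was found in another listed miRNA. Among 1175 distinct sequences of known and predicted miRNAs, the 3 sequences above were the only ones with either seed, and no other sequence shared a stretch of 12 bases with them. A seed of its own was common, since 381 of 554 known sequences (68.8%) had a seed that no other known sequence held. Both seeds contain the dinucleotide CG, which is rare in vertebrate messenger RNAs. It was present in the seeds of 93 known sequences (16.8%). The GC content was 56.5% for miR-187 and 50.0% for hsa-miR-184, beside a median of 45.5% over the known sequences.

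For stem-loop PCR of miR-187, the study designed a reverse transcription primer ending in ACCGGCTG, whose 8 bases are complementary to the 3′ end of the listed sequence with its added base. The forward primer was gcgcTCGTGTCTTGTGTTGC, in which capitals mark the 16 bases equal to the 5′ part of miR-187, seed included. The PCR values were not analysed here.

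In the RefSeq table of the goat assembly ARS1.2, MIR187 and MIR184 were on different chromosomes. The nearest named protein-coding genes beside MIR187 were C24H18orf21 and GALNT1, which encodes an enzyme that starts O-linked glycosylation. Those beside MIR184 were RASGRF1, an exchange factor for Ras, and ANKRD34C. Neither miRNA gene lay within another listed gene, and there was no further miRNA gene among the 5 genes on each side of either. The deposited files name no build, so no coordinates are given.

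The deposited values are normalized expression (NE), a signal in which 1 read equalled 0.860 NE for R and 1.16 NE for P. This differs from counts over clean reads, the formula given in the methods, under which the log2 ratio of miR-187 was 5.51 rather than 4.73 and that of miR-184 was 5.74 rather than 4.96. For the 3 names, division by these amounts gave whole reads. The distinct known names together summed to 1880606 reads (R) and 4032588 reads (P), with 532 and 502 names above 0. The reads were amplified and carried no molecular identifier, and every interval given here covers counting error only. With 1 library per phase, the deposited values hold no replicate to check a ratio against.

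miR-187 reached 338.8 NE in R against 12.8 NE in P, from 394 and 11 reads. The 95% exact Poisson interval of the P reads was 5.49 to 19.7. Among the names above 0, it exceeded 80.1% in R and 44.2% in P. Out of 1000000 reads of known miRNAs, those of miR-187 numbered 209.5 in R, with an exact 95% interval of 189.3 to 231.2, against 2.73 in P, with limits of 1.36 and 4.88.

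miR-184 was the rarer of both. hsa-miR-184 had 72.2 NE in R and 2.33 NE in P, from 84 and 2 reads, and the exact Poisson interval of the P reads was 0.242 to 7.22. It exceeded 65.6% of the names above 0 in R and 18.9% in P. Out of 1000000 reads of known miRNAs, it numbered 44.7 in R, with limits of 35.6 and 55.3, against 0.496 in P, with limits of 0.0601 and 1.79. The second name, rno-miR-184_R+2_1ss22TA, had 1 read in R (0.860 NE) and 0 in P. No fold is given for it, since both counts were at or under a floor of 3 reads that was set for folds. This floor is lower than the exact upper Poisson limit of 0 reads, which is 3.69.

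The ratio of R to P was 26.5 for miR-187, with a 95% exact (Clopper-Pearson) interval of 14.6 to 53.5. For miR-184 it was 31.1, with an interval of 8.33 to 261. The reads in P set the width of both intervals, and only the lower limits are informative for miR-184. On the log2 scale the ratios were 4.73 (3.87 to 5.74) and 4.96 (3.06 to 8.03). If P reads stood at the upper Poisson limit, the log2 ratios would be 3.89 for miR-187 and 3.10 for miR-184.

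Of the known names above 0 in both libraries, 100 of 447 (22.4%) were more than 2-fold higher in R and 4 (0.895%) were more than 16-fold higher. Both shares depended on the scaling. After scaling to clean reads they were 44.5% and 2.68% (12 names), and after scaling to summed known reads 72.7% and 5.15% (23 names). miR-187 and hsa-miR-184 were among the 4 names of the deposited values, which follows from how they were chosen. The other 2 were hsa-miR-449a, a miRNA of ciliated epithelium, and bta-miR-183_L-1. Among the 317 names with at least 10 reads in R and a P value above 0, hsa-miR-184 had rank 3 and miR-187 rank 4 in ratio. The lower limit of the log2 ratio exceeded 3 for 6 of these names.

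**Figure D1:**
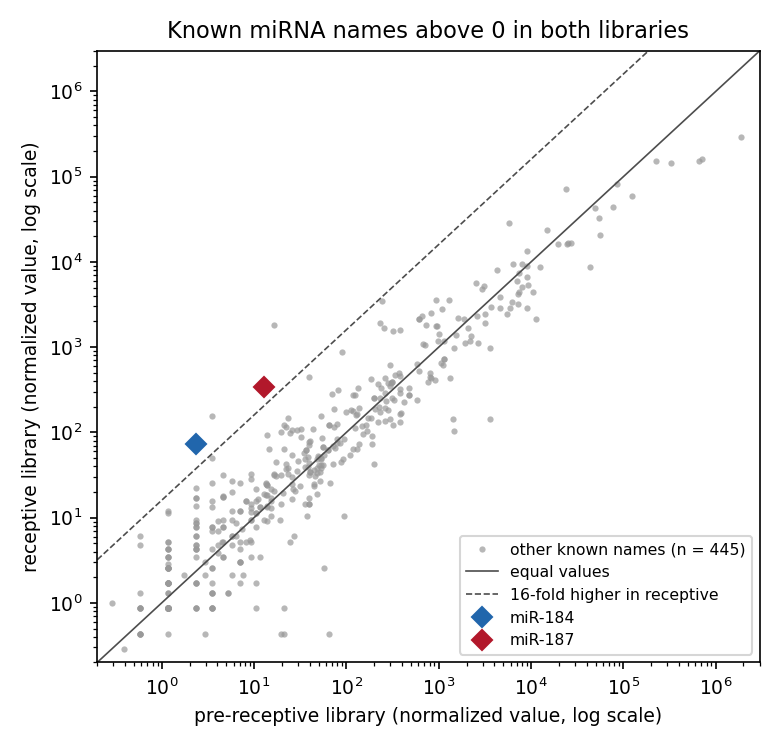
Each point is a known miRNA name above 0 in both libraries, with its NE in P on the horizontal axis and its NE in R on the vertical axis, both on log scales. miR-187 and miR-184 lie above the dashed line of a 16-fold ratio, as do 2 other names with the deposited scaling.

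miR-187 exceeded miR-184 in both libraries. Its reads were 4.69 times those of hsa-miR-184 in R (95% exact interval 3.70 to 6.01) and 5.50 times in P, where the interval reached 51.1. The ratio of the miR-187 ratio to the miR-184 ratio, which does not depend on the scaling between the libraries, was 0.938 as a conditional odds ratio, with an exact interval of 0.0982 to 4.52. On the log2 scale this was -0.09, with limits of -3.35 and 2.18. The interval held equal ratios as well as a large difference in either direction, so nothing is read from it.

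Names of a like depth in P were set beside each miRNA, with windows chosen after the values were seen. There were 134 other names with 1 to 3 reads in P, and their median was 1 read in R (quartiles 0 and 4), with 54 of the 134 higher in R by NE. Only bta-miR-183_L-1, with 179 reads, had more reads in R than the 84 of hsa-miR-184. There were 43 other names with 8 to 14 reads in P, with a median of 17 reads in R, and 30 of them were higher in R by NE. Only hsa-miR-449a, with 2143 reads, had more than the 394 of miR-187. That few names exceeded either member follows largely from the choice of both by a large ratio.

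The known names with the most similar ratio were the same 5 for both miRNAs. They were bta-miR-183_L-1 (log2 ratio 5.46), bta-miR-182 (3.86), oan-miR-429-3p_R+2 (3.84), hsa-miR-200a-5p (3.51) and oar-miR-154b-3p_L-1 (3.37), taken from the names with at least 10 reads in R. The interval of each of them overlapped those of miR-187 and miR-184. As these names were picked for their ratio, such overlap was nearly fixed by the choice. Their depth differed widely, from 14 reads in R and 1 in P for oar-miR-154b-3p_L-1 to 3519 NE in R and 242 NE in P for bta-miR-182. The first 4 are on the list of epithelial miRNAs given below, miR-182 and miR-183 as members of a cluster and miR-200a and miR-429 as members of the miR-200 family. The likeness rests on 2 libraries and is a description.

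The sequences of these 5 neighbours are shown for comparison of the seeds, again in capitals.
bta-miR-183_L-1: aTGGCACTggtagaattcactg
bta-miR-182: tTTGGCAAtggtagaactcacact
oan-miR-429-3p_R+2: tAATACTGtctggtaatgccgtaa
hsa-miR-200a-5p: cATCTTACcggacagtgctgga
oar-miR-154b-3p_L-1: aTCATACAtggttgaccttttt
Unlike those of miR-187 and miR-184, none of the 5 seeds contains CG, and no seed occurs more than once among the 7 miRNAs.

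The names nearest in R value had smaller log2 ratios in size, and 2 of the 10 passed the 2-fold limit, 1 in each direction. For miR-187 these were hsa-let-7b-3p_1ss22CT, hsa-miR-190a-5p_R+1, ggo-miR-421_R+1, bta-miR-146a_R-1_1ss23GA and mmu-miR-148a-5p, between 324 and 348 NE in R. Their P values were 133.7 to 477 NE, beside the 12.8 NE of miR-187, and their log2 ratios were -0.53 for ggo-miR-421_R+1 to 1.33 for hsa-miR-190a-5p_R+1. For miR-184 they were oar-miR-382-3p, oar-miR-412-3p_R-3, hsa-miR-98-3p_1ss22CT, bta-miR-1247-5p_R+1 and hsa-miR-99b-3p_R+1, between 70.5 and 75.7 NE in R. Their P values were 39.5 to 190.7 NE, beside the 2.33 NE of hsa-miR-184, and their log2 ratios were -1.37 for oar-miR-412-3p_R-3 to 0.83 for hsa-miR-98-3p_1ss22CT. All 10 had more reads in P than the member they were set beside, and none of their intervals reached that of the member. Both follow largely from the choice of the members by a large ratio, and nothing is read from them.

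**Figure D2:**
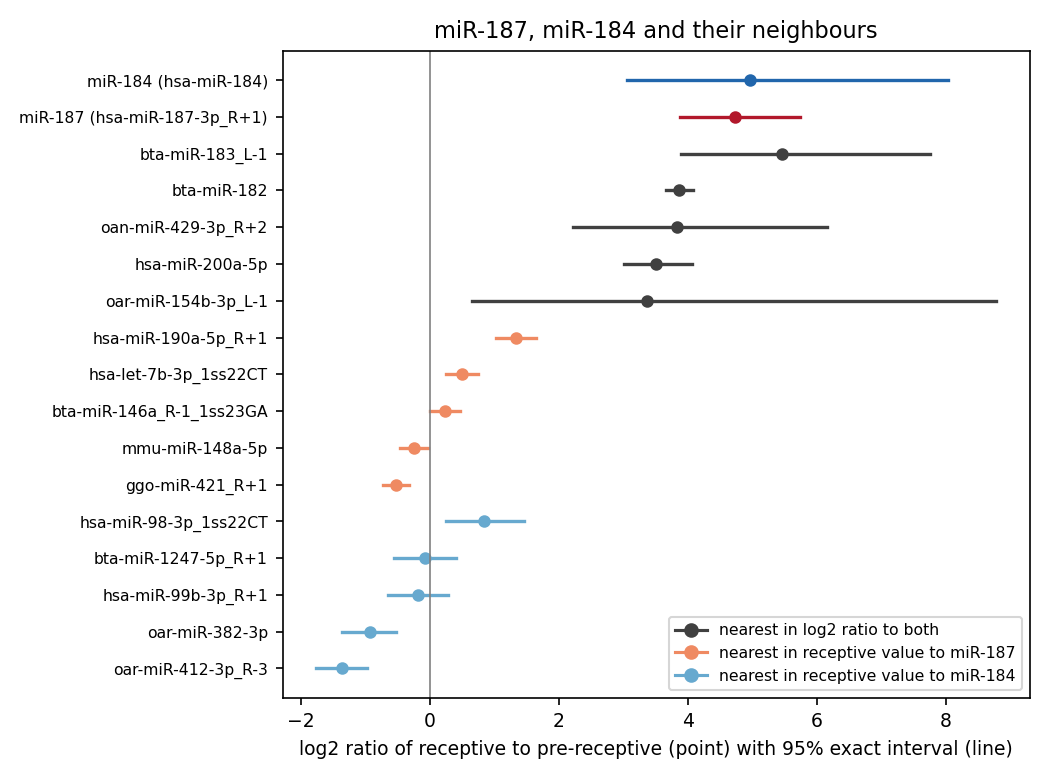
Points are log2 ratios of R to P and lines their 95% exact intervals, for miR-187, miR-184, the 5 names nearest to both in ratio and the 5 names nearest to each in R value. The intervals of the first 5 overlap those of miR-187 and miR-184, while the 10 names of like R value lie between -1.37 and 1.33. Both patterns follow largely from how the names were chosen.

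The scaling between the libraries shifted every ratio by the same amount. The median log2 ratio of the known names was 0.02 as deposited, 0.81 after scaling to the clean reads of each library and 1.56 after scaling to its summed reads of known miRNAs. Relative to this median, the log2 ratio was 4.70 for miR-187 and 4.93 for miR-184 under each scaling. With the summed known reads as the total, the log2 ratio of miR-187 was 6.26 and that of miR-184 was 6.49. Both were chosen by a large ratio and a scaling moves all names alike, so that a ratio of this size could not turn and its direction under each scaling is no support for it.

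**Figure D3:**
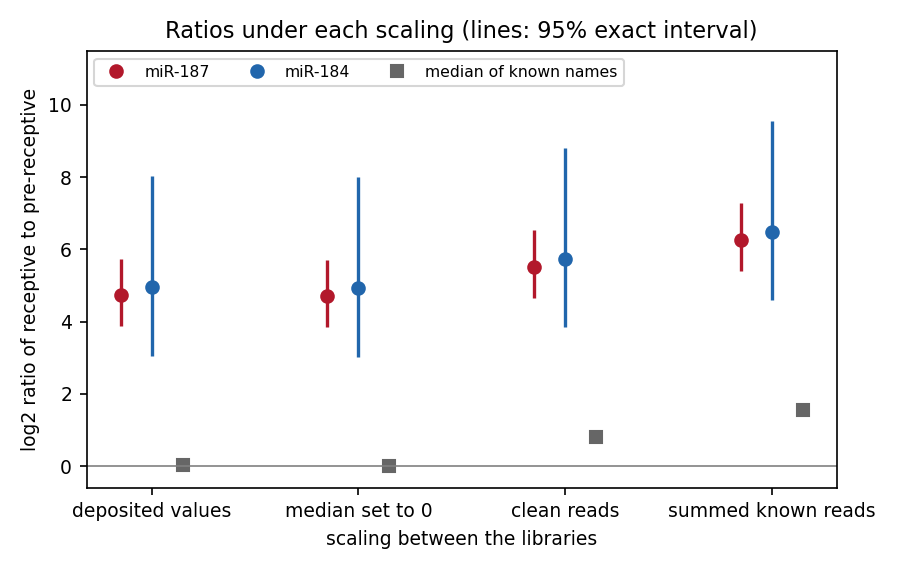
Log2 ratios of R to P are plotted for miR-187 and miR-184 with 95% exact intervals and for the median of the known names, under 4 scalings between the libraries. All 3 move together, from 4.73, 4.96 and 0.02 with the deposited values to 6.26, 6.49 and 1.56 with the summed known reads.

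Lists of miRNAs known from cell types of the tissue were given beside the result, as counts and medians over names above 0 in both libraries, where the median of all known names was 0.02. The sums of NE are over all names of a list, including names at 0 in 1 or both libraries, of which there were 3 epithelial, 3 ciliated, 1 blood cell and 2 neural names. Of 13 epithelial names, 12 were more than 2-fold higher in R and 0 lower, with a median log2 ratio of 3.04. Together the epithelial names had 38572.5 NE in R against 6977 NE in P. The most abundant, hsa-miR-141-3p_R-1, had 28337 NE (R) and 5791 NE (P), and miR-200b was not among the listed names. miR-187 and miR-184 exceeded 12 of the 13 epithelial names in ratio, the other being bta-miR-183_L-1. This follows largely from the choice of both by a large ratio, and nothing is read from it. Some intervals also overlapped those of both, such as that of oan-miR-429-3p_R+2 (2.22 to 6.16 on the log2 scale), so the order is not resolved.

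Of 5 names of ciliated epithelium, 3 were more than 2-fold higher in R, with a median of 1.35. All 8 listed names of this kind summed to 4872 NE in R against 1234 NE in P, led by hsa-miR-34c-5p with 2778 and 1090 NE, and miR-449c was not listed. hsa-miR-449a, with 1843 NE in R against 16.3 NE in P, added about as much to the difference as hsa-miR-34c-5p. Of 10 muscle names, 9 were more than 2-fold lower in R with the deposited scaling, with a median of -2.55. The share of all known names more than 2-fold lower was not counted. With the clean reads the muscle median was -1.77 and with the summed known reads -1.02. The count of 9 falls under both scalings, which shift all log2 ratios by 0.78 and 1.54. Their sum was 292640 NE in R against 1883319 NE in P, nearly all of it aja-miR-143_1ss22GT with 289634 and 1866274 NE. As a share of all known NE the muscle names were 18.1% in R and 40.2% in P. Nearly all of this share is aja-miR-143_1ss22GT, so it does not measure the amount of muscle. Of the lower names, hsa-miR-133a-5p, hsa-miR-1_1ss1TC and oar-miR-133_L+1R-2 had only 0.43 NE in R, less than the 0.860 NE of 1 read. miR-133b, miR-206, miR-208b and a plain miR-499 were not listed.

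The stromal fibroblast list had a median of -0.05 over 7 names, with 97321 NE in R against 97155.5 NE in P, led by oar-miR-199a-3p with 82015 and 84822 NE. The blood cell list had a median of 0.35 over 8 names, with 12220 and 12134 NE, led by cgr-miR-486-5p with 5052 and 8073 NE. With the deposited scaling its names moved in opposite directions, which did not hold with the summed known reads. cgr-miR-142-5p_L-2R+1 (log2 ratio 1.17) and cgr-miR-142-3p_L+1R+1 (1.19) were more than 2-fold higher in R, whereas cgr-miR-486-5p (-0.68) and cgr-miR-144_L+2R-3 (-0.80) were lower. In this list 2 pairs of miR-144 names had equal values in both libraries. miR-150 was not listed, and miR-451 appeared only as ssc-miR-451_L+3R-1 with 1.72 NE in R against 1.16 NE in P. The endothelial list, which is miR-126, had a median of 0.52 over 4 names, with 32840 and 21287 NE, led by hsa-miR-126-5p with 23369 and 14956 NE.

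The neural list had a median of 0.89 over 3 names, with 2197 NE in R against 1243 NE in P, led by hsa-miR-9-5p_R-2 with 1757 and 948 NE. No name of the early embryo list, such as miR-302 and miR-367, was listed. All 11 entries that match rRNA or tRNA, taken as a sign of RNA quality, were more than 2-fold higher in R, with a median of 2.02, 8328 NE in R against 2160 NE in P, led by hsa-mir-7641-2-p3_1ss22TC with 3564 and 929 NE. With the deposited values, the epithelial, ciliated, neural, endothelial and blood cell lists and these entries thus had medians in the direction of miR-187 and miR-184. The endothelial (0.52) and blood cell (0.35) medians were small, and the blood cell names went both ways with a nearly equal sum. The muscle list had a median in the opposite direction, and the stromal fibroblast median was -0.05. The part of these lists in the higher values of miR-187 and miR-184 was not tested. Under the other scalings the epithelial and rRNA or tRNA medians stayed above 0 and the muscle median below 0. The stromal median was 0.73 with the clean reads and 1.49 with the summed known reads, and the blood cell median 1.13 and 1.88. With the summed known reads the blood cell names no longer went both ways, and their sum was higher in R.

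**Figure D4:**
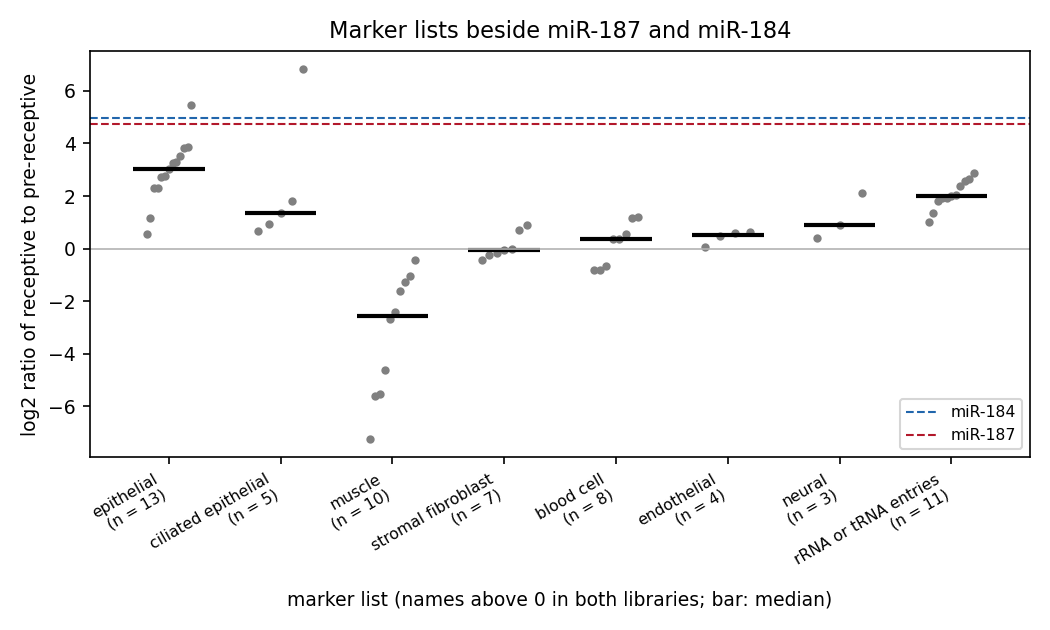
Grey points are log2 ratios of R to P of the single names of each marker list, black bars their medians and dashed lines the ratios of miR-187 and miR-184. The epithelial median is 3.04, the muscle median -2.55 and the stromal fibroblast median -0.05, and 2 points lie above both dashed lines, bta-miR-183_L-1 and hsa-miR-449a. That so few points do follows largely from the choice of both miRNAs by a large ratio.

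The conservation table of the authors lists the precursors matched in 23 species. miR-187 was listed for 12 of them and miR-184 for 10. All 10 species of miR-184 also had miR-187: cow, human, mouse, dog, pig, horse, rat, Chinese hamster, opossum and rhesus monkey. Platypus and orangutan were listed for miR-187 alone. Sheep, the closest relative of the goat in the table, was listed for neither. The table holds 74 names for sheep and 295 for cow, and a miRNA that is not listed for a species is not thereby shown to be missing from it.

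Targets predicted by both TargetScan and a second program, miRanda according to the methods, were deposited as 87779 pairs of a miRNA and a gene, with 7608 genes in all. miR-187 had 352 predicted targets, or 4.63% of these genes, and miR-184 had 273, or 3.59%. These are predictions from sequence, and no messenger RNA was measured. The second miR-184 name was not in the target table. The gene identifiers matched 0 of the entries of the RefSeq table, so that the target genes are not named here.

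Both miRNAs had short target lists within the target table, which covers only miRNAs that the authors called differentially expressed. The median over all names in the target table was 578.5 targets, with a range of 81 to 1331. Of these names, 19.7% had fewer targets than miR-187 and 9.15% fewer than miR-184. In the target table, 22 names had CG in the seed and 120 had none, a grouping that was chosen after the target numbers were seen. The median was 273 targets with CG (quartiles 209.2 and 366.2, range 81 to 549) and 655.5 without CG (quartiles 448.5 and 893.2, range 166 to 1331). Among the names with CG, 15 had fewer targets than miR-187 and 10 had fewer than miR-184. Relative to names with CG in the seed, neither target list was short. Some names share a sequence or a seed and are not independent, and no test was made.

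**Figure D5:**
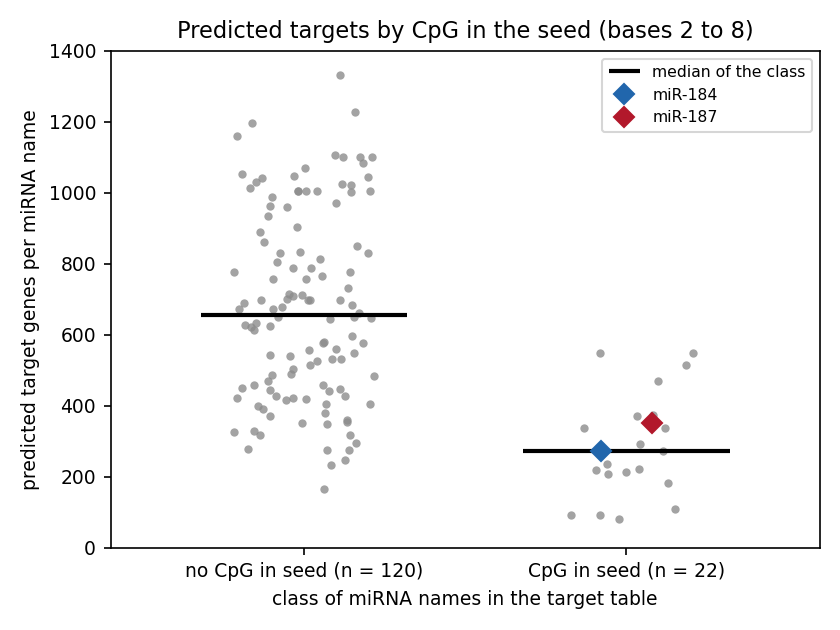
Each point is a miRNA name of the target table, placed by whether its seed contains the dinucleotide CG and by its number of predicted target genes, with bars at the class medians of 655.5 and 273. miR-187 with 352 targets and miR-184 with 273 targets lie within the range of the 22 names with CG.

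The target lists of miR-187 and miR-184 shared 21 genes, which is 5.97% of the miR-187 list and 7.69% of the miR-184 list. For comparison, each of the other 140 names was set against both lists. The median share of the miR-187 list that was also listed for another name was 12.4% (range 0.852% to 29.5%), and for the miR-184 list it was 13.9% (range 0.733% to 28.9%). These shares grow with the length of the other list. Taken as a share of the other list, the median was 7.38% for miR-187 and 5.88% for miR-184. By this measure the overlap of both lists, 7.69% and 5.97%, was close to that with other miRNAs.

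Nearly all of the targets were listed for further miRNAs. A gene of the table was listed for a median of 8 names, a target of miR-187 for 17 and a target of miR-184 for 18. The 21 shared genes were listed for 7 to 55 names each. Only 1 target of miR-187 and 5 targets of miR-184 were listed for no other name, or 0.284% and 1.83%, beside 622 of all genes (8.18%) that were listed for 1 name alone. A gene drawn from the list of a miRNA tends by construction to be listed for more names than a gene of the whole table. The same values were not counted for the lists of the other names, so nothing is read from these differences. Of the miR-187 targets, 306 (86.9%) were also listed for at least 1 known miRNA that was lower in R, as were 234 (85.7%) of the miR-184 targets and 73.5% of all genes in the table. With reads scaled to the clean reads the same 33 names were lower in R and the shares were equal. This was fixed in advance. The target table holds only names changed more than 2-fold, and this scaling shifts all log2 ratios by only 0.78. With the summed known reads, 17 names were lower and the shares were 80.4%, 79.5% and 62.4%, both scalings being applied after the data were seen. A gene listed for more names reaches this share more easily, and nothing is read from the difference. Of the known names in the target table, 87 were higher in R and 33 were lower, and the share for names higher in R was not counted.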

How the data were processed

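The authors cleaned the reads with ACGT101-miR, which discarded adapter and junk sequences, other RNA classes and repeats, matched the rest to miRBase and deposited for each known miRNA a normalized signal per library (1 receptive, 1 pre-receptive). The steps of the values show reads divided by 1 factor per library. Of the values above 0, 79.1% in R and 83.1% in P were whole reads within 0.01 read, and the others were fractions. The genome build is not given in the sources used here. The authors' table of differential expression also holds their fold changes and P-values, which were not used (its header names a chi-square test). Its signal values equalled those used here within 0.006 for 340 of 340 shared known names. The predicted candidates were used for their sequences only.

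Names that hold miR-187 or miR-184, with any prefix or ending, were taken, and the 54 names listed more than once, with equal values, were counted once. Ratios have exact (Clopper-Pearson) intervals and the ratio of ratios a conditional odds ratio. There was no test, with 1 library a group. The named miRNAs are the members, the 5 nearest in log2 ratio (at least 10 reads in R, above 0 in P), the 5 nearest in receptive value, and the most abundant name of each marker list. hsa-miR-449a and miR-183 in the depth windows were named after their values were seen. So were hsa-miR-449a in the ciliated list and the miR-142, miR-144 and miR-451 names of the blood cell list. This also holds for the miR-1 and miR-133 names of the muscle list and for the miR-2887 and miR-1260b entries. The members and lists were chosen with earlier results of these data known. In the target table the transcript column repeats the distinct gene identifiers in its first lines and is not paired with the miRNA, so the gene column was used. For the target predictions the methods name miRanda beside TargetScan, whereas the results text and a table note of the paper name Mireap. The grouping by CG in the seed was chosen after the target numbers were seen. The symbol lists planned for the targets were not used, since no identifier matched. Alternatives were other scalings, filters, a pseudocount and limits on the P reads. The scripts ran in Python 3.11.15 with scipy 1.17.1 for intervals, pandas 2.3.3 and numpy 2.4.6 for tables, and matplotlib 3.10.9 for figures.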

Additional observations from a re-analysis of the deposited data

How the results depend on the processing

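The log2 ratios of miR-187 and miR-184 ranged from 3.89 to 6.26 and from 3.10 to 6.49 over the alternatives. Their direction was fixed by the choice of the members, and P reads of at least 3 could not change miR-187. Only with reads scaled to the summed known reads did miR-187 leave its exact interval, at 6.26, while all alternatives of miR-184 lay within its wide interval. A pseudocount of 1 NE gave 4.62 and 4.46, and P reads of at least 3 gave 4.37 for miR-184. The ratio of the miR-187 ratio to the miR-184 ratio was 0.927 with both miR-184 names summed and 1.41 with P reads of at least 3, on either side of 1 and within its interval. The share of known names more than 2-fold higher in receptive was 22.4% as deposited, 44.5% after scaling to clean reads and 72.7% after scaling to summed known reads, since these scalings shift all log2 ratios by 0.78 and 1.54. The other filters, of which the limit of 10 R reads also kept names at 0 in P as 3 reads, gave values between 19.1% and 23.5%. The share above 16-fold was 0.955% by distinct sequence and 1.25% with at least 10 R reads, beside 0.895%. It was not run with at least 3 reads in each library. By scalings chosen after the data were seen, that share was 2.68% with clean reads and 5.15% with summed known reads. The share of targets also listed for a known miRNA lower in receptive was the same with clean reads. This was fixed in advance, since a shift of 0.78 cannot turn names that were more than 2-fold lower. With summed known reads the share was 80.4% for miR-187 and 79.5% for miR-184. A seed of bases 2 to 7 gave the same 3 sequences. Counting shared targets by the transcript column was not run, since that column is not paired with the miRNA. Depth in P limits the size of both ratios, from 11 and 2 reads.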
